A study of Mus musculus with 24 samples.

Results

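The miR-532, miR-188, miR-362, miR-501 and miR-500 hairpins lie next to each other on the mouse X chromosome. They were followed with TaqMan assays in 3 cell lines and in bone marrow. The assays were chosen by name: a mouse (mmu) assay named for one of these 5 microRNAs, with or without a 3p or 5p ending, was a member, which gave 8 of 584 microRNA assays. Assays whose names end in * or # were left out. The group of neighbouring genes was picked from earlier results of these data, so the level of each member in each group is given as a description. Members past a call from a fit over all assays are counted below, also as a description.

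Quantitative reverse-transcription PCR was run on TaqMan low density cards A and B with total RNA of 12 replicates, 3 in each of 4 groups. PYS is an adherent teratocarcinoma line with an epithelial-like form. L-1210 is a lymphocytic leukaemia line and M1 a myeloid leukaemia line, both grown in suspension, and the labels put the 3 lines at passage 3. CT-BM is primary marrow, obtained by flushing tibia and femur, and thus a mixture of cell types, although the growth protocol listed for it describes a suspension culture. Strain, age and genotype are not given in the sources used here, and no group was treated. Nothing in the labels says that the 3 replicates of a group came from separate cultures or animals, so their spread may be technical. In such bulk RNA, fewer cells of a type and less RNA per cell cannot be told apart.

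A microRNA hairpin is cut by Dicer into a duplex, and a strand from its 5′ arm (5p) or its 3′ arm (3p) is loaded into an Argonaute protein. Bases 2 to 8 of the loaded strand, the seed, pair with target messenger RNAs, which are then repressed. Hairpins that sit close together on a strand are often cut from a shared primary transcript, while the amount of each mature strand also depends on its own processing and stability. This group of hairpins is also found in the human genome, within CLCN5.

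In RefSeq's mouse assembly GRCm38.p6 the 5 hairpins lie on the minus strand of chromosome X within 10815 bases, at chrX:7237683-7248497. That interval is inside the span of Clcn5 (chrX:7153810-7319358), the gene of an endosomal chloride and proton exchanger, whose promoter windows in the same tables are also on the minus strand. The tables used here do not say whether each hairpin is exonic or intronic. Along the direction of transcription the order is Mir532 (chrX:7248402-7248497), Mir188 (chrX:7247989-7248056), Mir362 (chrX:7241982-7242046), Mir501 (chrX:7241243-7241351) and Mir500 (chrX:7237683-7237774). Mir532 and Mir188 are 345 bases apart, Mir188 and Mir362 5942 bases, Mir362 and Mir501 630 bases, and Mir501 and Mir500 3468 bases.

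The mature strands below are from RefSeq (GRCm38.p6), written 5′ to 3′ with the seed in capitals. They are shown because miR-500 and miR-501-3p, detected in lines and not in CT-BM, belong to hairpins that give a pair of strands with a common seed.
miR-500-3p: aAUGCACCugggcaaggguuca
miR-501-3p: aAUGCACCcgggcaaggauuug
miR-362-3p: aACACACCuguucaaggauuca
miR-500-5p: aAUCCUUGcuaucugggugcuuagu
miR-362-5p: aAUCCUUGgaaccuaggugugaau
miR-501-5p: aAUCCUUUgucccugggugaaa
miR-188-5p: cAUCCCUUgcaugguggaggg
miR-188-3p: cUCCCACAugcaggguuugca
miR-532-3p: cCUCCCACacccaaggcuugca
The seed AUGCACC was common to miR-500-3p and miR-501-3p, whose 22 bases matched at 18 positions and differed by U9C, G18A, C21U and A22G (miR-500-3p first, positions from 1 at its 5′ end). The seed AUCCUUG was common to miR-500-5p and miR-362-5p. The name of the miR-500 assay gives no arm, so which of the miR-500 strands it measures is not known here, and no assay was named for miR-362-5p. The mature miR-532-5p, whose assay is also a member, is named only.

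A well reports its threshold cycle (Ct), which is lower by 1 for each doubling of template. The table held 8969 wells, 367 to 380 per card run, and 48.3% of them did not amplify. Wells with no Ct, or a Ct over 35 cycles, were counted as not detected. A level is on the log2 scale and is the Ct of the assay taken from the mean Ct of 3 control RNAs of that card and replicate, namely snoRNA202, snoRNA135 and MammU6. Assays can differ in efficiency, so levels of different assays are set against each other only as changes between groups. The precision is limited by the number of replicates, and where an assay was not detected its level is only bounded, at the Ct limit of 35. The control RNAs themselves differed between groups: against CT-BM on card A, the mean Ct of MammU6 differed by 0.57, 0.74 and -2.17 cycles in PYS, L-1210 and M1, that of snoRNA135 by -1.86, -1.11 and -2.23 cycles, and that of snoRNA202 by -1.53, -2.64 and -2.67 cycles. On card B the differences in M1 were -0.78 cycles for MammU6, -2.10 for snoRNA135 and -2.59 for snoRNA202, so the MammU6 shift in M1 was not alike on the cards. The text therefore gives, beside a difference whose sign turns with the scaling, its range over 7 scalings, and also values within the cluster that use no control RNA. The 4 MammU6 wells of M1 replicate 2 on card A ran from 5.73 to 8.96 cycles.

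Marker microRNAs were used to check the labels. Of 10 microRNAs of pluripotent cells, 10 were detected in every replicate of PYS, against 4 in L-1210, 3 in M1 and 2 in CT-BM. Both blood-wide markers (miR-142-3p and miR-142-5p) were detected in L-1210, M1 and CT-BM, and miR-142-5p was not detected in PYS. The erythroid markers miR-451 and miR-486 were both detected in CT-BM, while neither was in L-1210 or M1 and miR-486 was not in PYS. CT-BM also had 4 of 4 mesenchymal markers, with a summed level of -6.29 to -5.70, against 2 in PYS (-13.47 to -12.86), 1 in L-1210 (-10.99 to -10.56) and 2 in M1 (-11.54 to -10.44). The lymphocyte microRNA miR-150 had a level of -12.90 to -12.15 in L-1210, the lowest of the 4 groups. Its level was -11.46 to -11.00 in PYS, -7.51 to -7.40 in M1 and -1.82 to -1.61 in CT-BM. This marker thus did not bear out the lymphocytic label. Cell makeup thus moved with every comparison against CT-BM, and its part in the cluster's values was not tested.

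miR-188-3p was not detected in any replicate of any group. The other 7 members fell into 2 sets. miR-532-5p, miR-532-3p, miR-188-5p and miR-362-3p were detected in all 12 replicates. miR-500, miR-501-3p and miR-501-5p were detected in 1 or more lines and not in CT-BM. In PYS 7 of the 8 assays were detected, in L-1210 6, in M1 5 and in CT-BM 4.

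**Figure D1:**
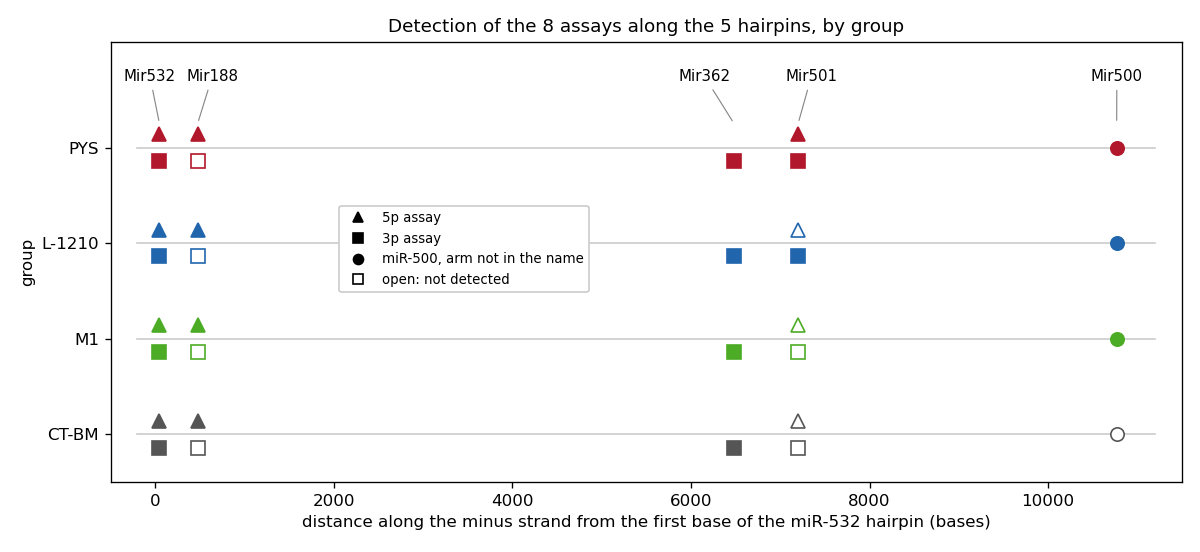
Detection of the 8 assays by group (rows), placed along the 5 hairpins by distance in bases from the start of the miR-532 hairpin (horizontal axis). Filled symbols were detected in every replicate present and open symbols in none. miR-362-3p is filled in all 4 groups, as are both miR-532 assays and miR-188-5p, and the assays filled in some groups and open in others are those of the miR-501 and miR-500 hairpins.

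At the start of the cluster, miR-532-5p amplified early in the lines. Its Ct was 18.1, 18.3 and 19.1 in PYS, 18.8, 19.8 and 19.1 in L-1210, 18.8, 18.6 and 18.7 in M1, and 22.0, 22.6 and 22.8 in CT-BM. No replicate of a line reached the lowest Ct of CT-BM. The level averaged -4.63 ± 0.39 in PYS, -5.42 ± 0.42 in L-1210, -6.29 ± 0.24 in M1 and -7.63 ± 0.27 in CT-BM (SD, n = 3 each), and no neighbours in that order overlapped. Relative to CT-BM, the log2 difference was 3.00 ± 0.28 (SE) in PYS, 2.21 ± 0.28 in L-1210 and 1.35 ± 0.28 in M1, which are 8.01, 4.61 and 2.54-fold. It was positive under all 7 scalings in each line.

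miR-532-3p comes from the other arm of the same hairpin. Its Ct was 20.2, 19.6 and 20.5 in PYS, 21.6, 21.4 and 21.0 in L-1210, 21.7, 21.8 and 21.4 in M1, and 23.5, 23.8 and 23.9 in CT-BM. The Ct was thus lower in every replicate of every line, but on the scaled level M1 and CT-BM overlapped. The level averaged -6.22 ± 0.13 in PYS, -7.52 ± 0.37 in L-1210, -9.17 ± 0.34 in M1 and -8.92 ± 0.16 in CT-BM (SD, n = 3 each). The log2 difference from CT-BM was 2.70 ± 0.25 (SE) in PYS, or 6.48-fold, and positive under 7 of 7 scalings. In L-1210 it was 1.40 ± 0.24, positive under 6 of 7 scalings, which ran from -0.24 with snoRNA202 alone to 3.14 with MammU6 alone. In M1 it was -0.26 ± 0.24, with scalings giving -0.57 to 0.69, so no direction is given there.

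miR-188-5p, whose gene lies beside Mir532, has been studied in mice as a regulator of bone and fat cell formation in marrow stroma. Its Ct was 22.1, 21.5 and 21.8 in PYS, 22.7, 23.9 and 22.8 in L-1210, 22.2, 21.3 and 21.3 in M1, and 24.4, 24.9 and 24.7 in CT-BM. The level averaged -7.92 ± 0.33 in PYS, -9.35 ± 0.39 in L-1210, -9.15 ± 0.18 in M1 and -9.86 ± 0.02 in CT-BM (SD, n = 3 each). PYS stood above every replicate of the other groups, and L-1210 and M1 overlapped. The log2 difference from CT-BM was 1.94 ± 0.25 (SE) in PYS, or 3.84-fold, 0.51 ± 0.24 in L-1210 and 0.72 ± 0.24 in M1. It was positive under all 7 scalings in PYS and M1, and in L-1210 it ran from -1.12 with snoRNA202 alone to 2.26 with MammU6 alone.

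miR-362-3p lies in the middle of the cluster and was the member detected latest in CT-BM. Its Ct was 24.9, 23.9 and 25.0 in PYS, 26.3, 26.3 and 25.4 in L-1210, 26.8, 26.2 and 25.6 in M1, and 27.9, 28.9 and 28.5 in CT-BM. The level averaged -10.75 ± 0.27 in PYS, -12.18 ± 0.24 in L-1210, -13.75 ± 0.33 in M1 and -13.62 ± 0.19 in CT-BM (SD, n = 3 each). M1 and CT-BM overlapped, and the other neighbours in the order PYS, L-1210, CT-BM, M1 did not. The log2 difference from CT-BM was 2.87 ± 0.24 (SE) in PYS, or 7.31-fold, and positive under 7 of 7 scalings. In L-1210 it was 1.44 ± 0.24, or 2.71-fold, and the scalings ran from -0.19 with snoRNA202 alone to 5.89 with quantile normalization. In M1 it was -0.12 ± 0.24, and the scalings ran from -0.44 to 5.27, the last with quantile normalization.

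miR-500, at the far end of the cluster, was detected in every line and in no replicate of CT-BM. Its Ct was 24.7, 23.7 and 25.0 in PYS, 25.9, 25.3 and 25.0 in L-1210, and 25.2, 25.0 and 23.7 in M1. In each line but M1 these were close to the Ct of miR-362-3p in the same replicate, an assay that CT-BM did show. The level averaged -10.58 ± 0.35 in PYS, -11.58 ± 0.55 in L-1210 and -12.20 ± 0.66 in M1 (SD, n = 3 each), against a bound of -20.49 to -19.94 in CT-BM. PYS did not overlap L-1210, and L-1210 overlapped M1. Against the bound, miR-500 was at least 782-fold higher in PYS, at least 391-fold higher in L-1210 and at least 254-fold higher in M1. It was higher under 7 of 7 scalings in each, which a gap of this size could hardly fail to give. These bounds follow from the Ct limit: with a limit of 32 cycles the log2 bounds were 6.61, 5.61 and 4.99 in PYS, L-1210 and M1, in place of 9.61, 8.61 and 7.99. At the limit of 35, the scalings ran from 8.69 to 11.12 in PYS, 6.98 to 10.35 in L-1210 and 7.67 to 9.98 in M1.

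miR-501-3p, which has the same seed as miR-500-3p, was detected in PYS and L-1210 and in neither M1 nor CT-BM. Its Ct was 21.9, 20.9 and 21.9 in PYS and 24.0, 24.0 and 22.7 in L-1210. None of the 2 M1 replicates with a well amplified (the well of M1 replicate 3 is absent from the table), and none of 3 CT-BM replicates did. The level averaged -7.72 ± 0.27 in PYS and -9.75 ± 0.44 in L-1210 (SD, n = 3 each), without overlap. Scaled to the 3 control RNAs, it was at least 5688-fold higher in PYS and at least 1389-fold higher in L-1210 than in CT-BM. It was at least 27254-fold higher in PYS and at least 6656-fold higher in L-1210 than in M1. With a Ct limit of 32 the log2 bounds against CT-BM were 9.47 in PYS and 7.44 in L-1210, in place of 12.47 and 10.44. Against M1 they were 11.73 in PYS and 9.70 in L-1210, in place of 14.73 and 12.70. M1 and CT-BM both stood at the Ct limit, so their bounds differed only through the control RNAs and do not rank these groups.

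miR-501-5p is the other arm of that hairpin and the member on card B, in a pair of wells per replicate. In PYS the wells read 26.3 and 26.5 cycles, 26.2 and 26.2 cycles, and 26.1 and 26 cycles. None of the 6 wells amplified in L-1210, M1 or CT-BM. The level in PYS was -13.30 ± 0.17 (SD, n = 3), at least 535-fold higher than in L-1210, 657-fold higher than in M1 and 186-fold higher than in CT-BM (at a Ct limit of 32, log2 bounds of 6.06, 6.36 and 4.54 in place of 9.06, 9.36 and 7.54). L-1210 therefore had the 3p strand of miR-501 detected and its 5p strand not.

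**Figure D2:**
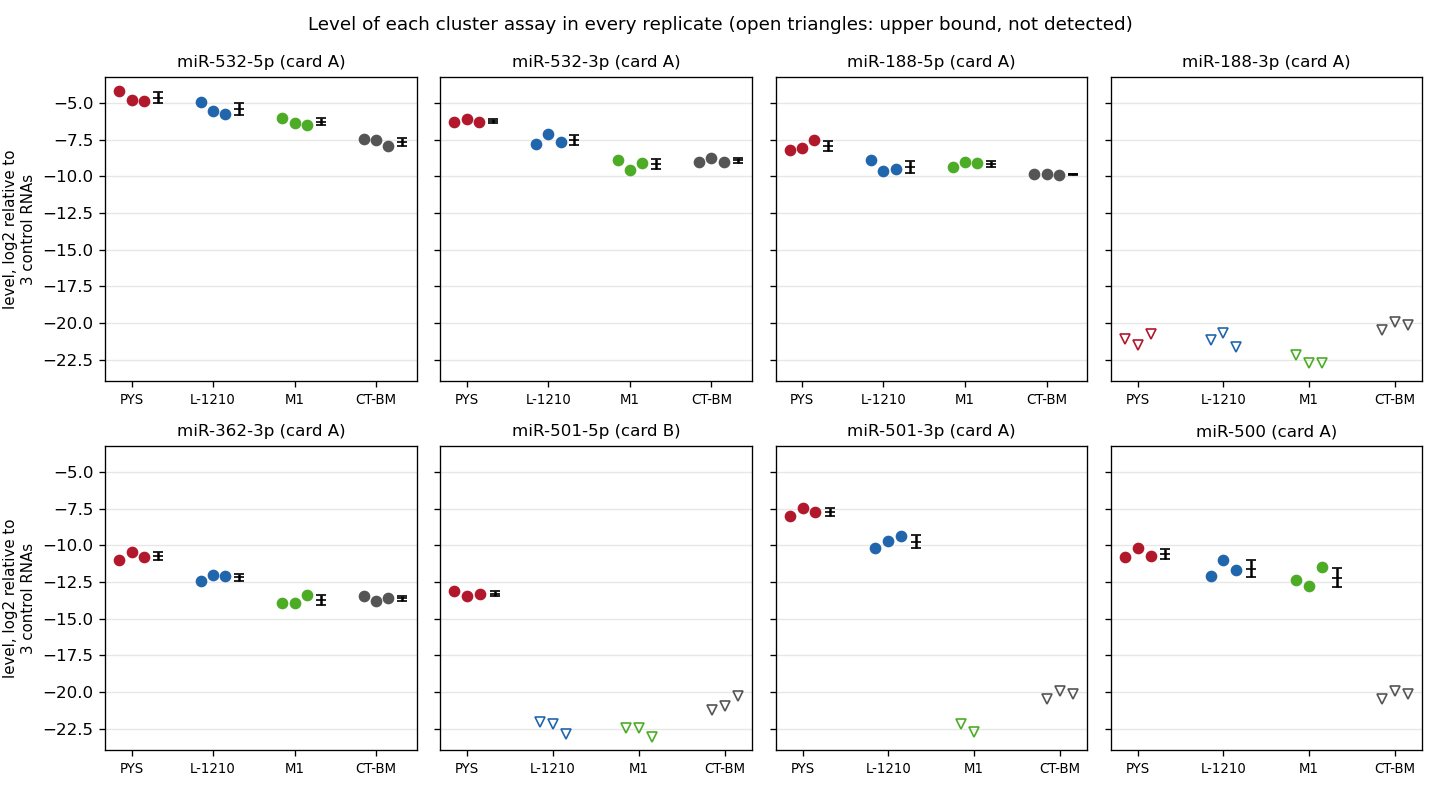
Level of each member in every replicate (vertical axis, log2 relative to the 3 control RNAs; 1 panel per assay, groups along the horizontal axis). Filled circles are detected replicates with mean and SD beside them, and open triangles are upper bounds of replicates not detected. PYS is highest in each of the 7 detected assays.

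The number of members past the call, an adjusted p under 0.05 from limma over all assays tested and at least a 2-fold difference, is given with the share of all assays that passed it in the same direction. These contrasts chose the cluster, so nothing is read from the counts. An assay was tested where every replicate present of at least 1 of the 2 groups was detected. Against CT-BM, 7 of 7 tested members were called higher in PYS (39.8% of all assays tested), 5 of 6 in L-1210 (22.5%) and 2 of 5 in M1 (25.2%). None was called lower by limma in any of the 3, where 38.7%, 45.6% and 44.3% of all assays were called lower in PYS, L-1210 and M1. At an unadjusted p under 0.05 from limma, 0 were lower in each. The share of all assays at that threshold is not given. miR-500, miR-501-3p and miR-501-5p were tested only through a line that detected them, so they could hardly come out lower. The 2 called in M1 were miR-532-5p and miR-500, and the member not called in L-1210 was miR-188-5p. The median log2 difference of the members measured in both groups was 2.78 in PYS, 1.42 in L-1210 and 0.30 in M1, beside 0.08, -0.82 and -0.59 over all assays. Over all tested members, with bounds included, it was 3.00 in PYS, 1.82 in L-1210 and 0.72 in M1.

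Between the lines, PYS had 5 of 7 tested members called higher against L-1210 (46.1% of all assays tested) and 7 of 7 against M1 (46.2%). L-1210 had 3 of 6 called higher against M1 (25.3%), namely miR-362-3p, miR-532-3p and miR-501-3p. No member was called lower by limma in these comparisons, while 27.8%, 27.4% and 30.9% of all assays were called lower in PYS against L-1210, PYS against M1 and L-1210 against M1. At an unadjusted p under 0.05 from limma, 0 were lower in each, again without a share over all assays. miR-501-3p against M1, and miR-501-5p against L-1210 and M1, were likewise tested only through the line that detected them. The log2 differences of PYS over M1 were 2.99 ± 0.24 (SE) for miR-362-3p, 2.95 ± 0.25 for miR-532-3p, 1.66 ± 0.28 for miR-532-5p, 1.62 ± 0.36 for miR-500 and 1.23 ± 0.25 for miR-188-5p. With snoRNA135 alone miR-532-5p was at 0.61 and miR-500 at 0.58, and each was called in 4 of 7 scalings. miR-188-5p was called in 3 of 7, and miR-362-3p and miR-532-3p in 7 of 7. The differences of PYS over L-1210, for members measured in both, ran from 0.80 ± 0.28 for miR-532-5p to 2.03 ± 0.28 for miR-501-3p. miR-532-5p and miR-500 were those not called there, miR-500 with 1.00 ± 0.36, just under the 2-fold minimum. The scalings of miR-532-5p in PYS over L-1210 ran from -0.19 to 1.84. Of L-1210 over M1, miR-362-3p differed by 1.56 ± 0.24 and miR-532-3p by 1.65 ± 0.24, both positive under 7 of 7 scalings but called in 4 and 5 of them. With snoRNA202 alone they were 0.25 and 0.34, and without MammU6 0.78 and 0.88, none of these called. The other measured members were at 0.86 ± 0.28 (miR-532-5p), 0.62 ± 0.36 (miR-500) and -0.20 ± 0.24 (miR-188-5p). Their scalings ran from -0.46 to 2.42, -0.69 to 2.18 and -1.52 to 1.35 in that order. Calls over all assays also moved with the scaling. L-1210 against M1 had 77 higher and 94 lower calls of 304 tested assays. These became 152 and 43 with MammU6 alone, and 61 and 179 with snoRNA202 alone. PYS against L-1210 had 161 and 97 of 349, 217 and 73 with snoRNA202 alone and 121 and 116 with snoRNA135 alone. PYS against M1 had 157 and 93 of 340, 127 and 134 with snoRNA135 alone and 115 and 135 with quantile normalization. A change in the number of members called under another scaling is therefore not read as a change of the members alone.

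**Figure D3:**
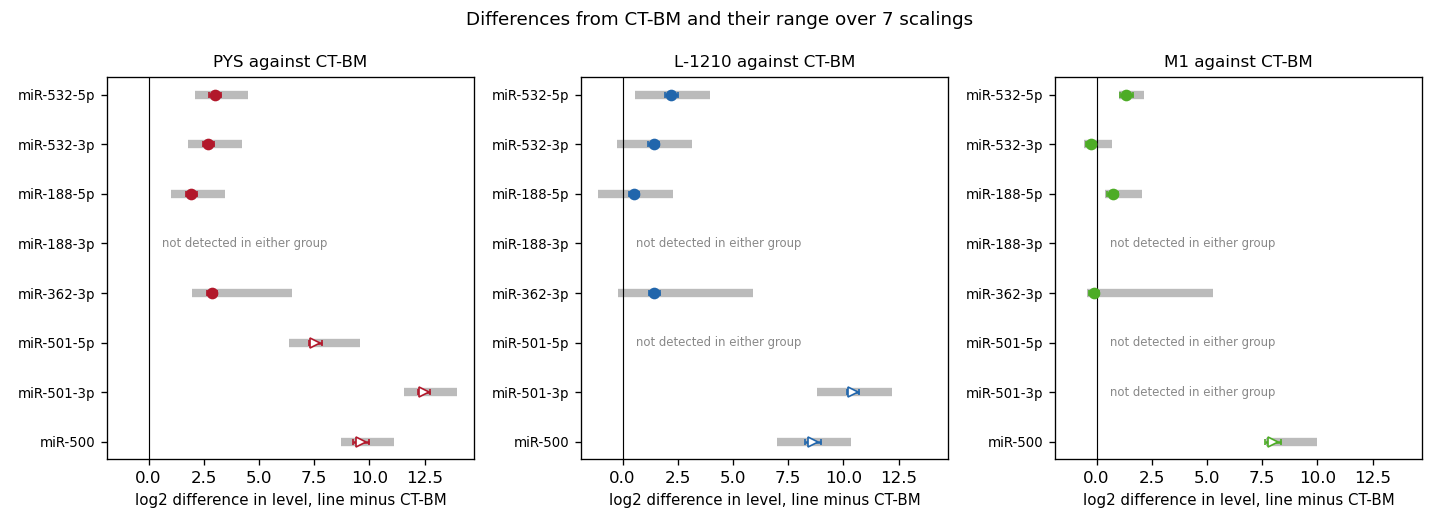
Log2 difference in level from CT-BM (horizontal axis) for the 8 assays (vertical axis) in PYS, L-1210 and M1. Circles show measured differences with SE, open arrowheads lower bounds, and grey bars the range over 7 scalings. The bars of miR-532-3p, miR-188-5p and miR-362-3p in L-1210 cross 0. Those of miR-500, miR-501-3p and miR-501-5p stay above 0 wherever the assay was detected. CT-BM stands at the Ct limit for these assays, many cycles from the lines, so a change of scaling could hardly bring their bars to 0.

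Setting the card A members against their own mean removes the control RNAs. The 4 members detected in all 12 replicates were averaged by Ct in each replicate, and each member is given on the log2 scale relative to that mean. By this measure, miR-500 was at -3.20 ± 0.32 in PYS, -2.96 ± 0.57 in L-1210 and -2.61 ± 0.56 in M1 (SD, n = 3 each), and the 3 lines overlapped. In CT-BM it was at or below -10.56 to -9.96, so its share of the cluster was at least 127-fold higher in PYS, 149-fold higher in L-1210 and 189-fold higher in M1. miR-501-3p was at -0.33 ± 0.24 in PYS and -1.13 ± 0.55 in L-1210, against bounds of -13.02 to -12.62 in M1 and -10.56 to -9.96 in CT-BM. Relative to the cluster mean it was at least 5727-fold higher in PYS and 3299-fold higher in L-1210 than in M1, and at least 920-fold and 530-fold higher than in CT-BM.

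The 4 members that make up this mean varied less between groups by this measure. Each is set against a mean that includes it, which narrows its differences and makes a rise of any member lower the others. Their spread is therefore not comparable with that of miR-500 and miR-501-3p, which are outside the mean. miR-362-3p was at -3.37 ± 0.24 in PYS, -3.56 ± 0.31 in L-1210, -4.16 ± 0.26 in M1 and -3.61 ± 0.20 in CT-BM. miR-532-3p was at 1.16 ± 0.10, 1.10 ± 0.38 and 0.41 ± 0.25 in PYS, L-1210 and M1, against 1.09 ± 0.16 in CT-BM. For both, PYS and L-1210 overlapped CT-BM and M1 stood below it. miR-532-5p was at 2.75 ± 0.41 in PYS, 3.20 ± 0.33 in L-1210, 3.30 ± 0.26 in M1 and 2.38 ± 0.17 in CT-BM, with CT-BM (up to 2.48) below each line (from 2.49 in PYS). miR-188-5p was at -0.54 ± 0.34, -0.73 ± 0.35 and 0.44 ± 0.26 in PYS, L-1210 and M1, against 0.15 ± 0.08 in CT-BM (SD, n = 3 in each group). M1 overlapped CT-BM there, and PYS and L-1210 were lower than both.

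**Figure D4:**
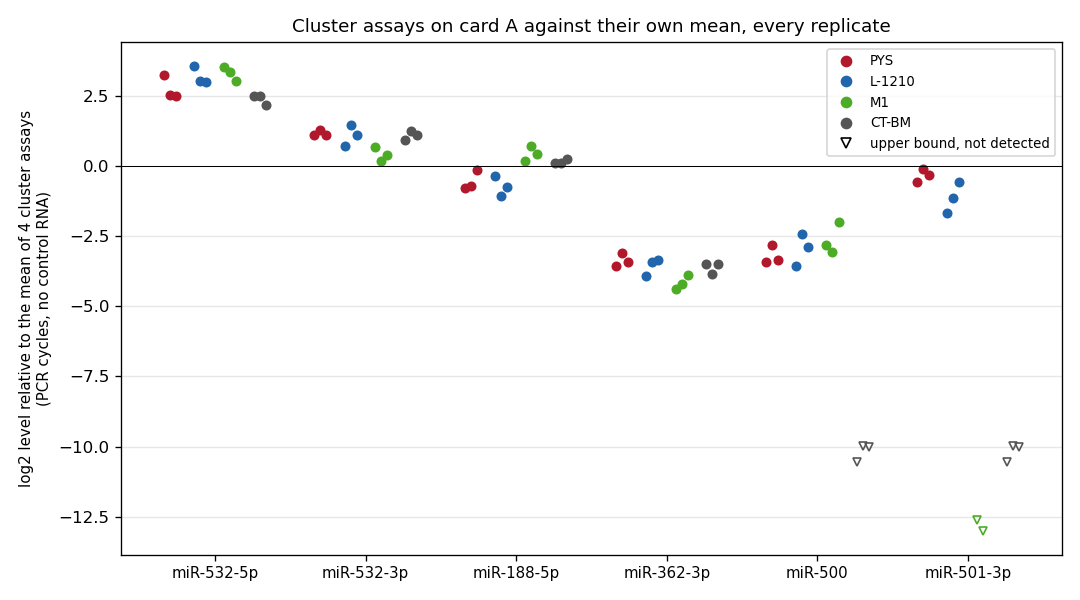
Each card A member relative to the mean of the 4 members detected throughout (vertical axis, log2, in PCR cycles) in every replicate, coloured by group in the order PYS, L-1210, M1, CT-BM. Open triangles are upper bounds. miR-500 in CT-BM and miR-501-3p in M1 and CT-BM lie far below the other points, and the remaining values of a member lie within a few cycles.

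The arms of miR-532 were compared in the same way, as the Ct of the 3p assay minus that of the 5p assay on card A. This difference was 1.59 ± 0.46 cycles in PYS, 2.10 ± 0.68 in L-1210, 2.89 ± 0.27 in M1 and 1.29 ± 0.24 in CT-BM (SD, n = 3 each). The 3 M1 replicates, at 2.63 to 3.17 cycles, lay above the 3 CT-BM replicates, at 1.08 to 1.55. The shift toward the 5p assay was 1.60 cycles, or 3.04-fold, in M1 and 0.81 cycles, or 1.75-fold, in L-1210, and PYS overlapped CT-BM. The lowest L-1210 replicate, at 1.56 cycles, lay just above the highest of CT-BM, at 1.55, and without L-1210 replicate 1 the shift in L-1210 was 0.43 cycles. PYS, at 1.26 to 2.12 cycles, also lay below M1, by 1.30 cycles, and L-1210 overlapped both other lines. No test was made of these shifts, so they are stated by whether replicates overlap.

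Among neighbours, miR-501-3p was set against miR-500, the assay that may hold a strand of the same seed. The Ct of miR-500 minus that of miR-501-3p was 2.86 ± 0.16 cycles in PYS and 1.83 ± 0.51 in L-1210 (SD, n = 3 each), without overlap. In M1 it was at most -9.97 and -9.81 cycles in the 2 replicates with both wells, since miR-500 was detected and miR-501-3p was not. In CT-BM neither was detected. M1 and CT-BM thus lacked a detected miR-501-3p at this Ct limit, and differed in miR-500.

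Among the 172 mouse assays outside the cluster that were detected in all 12 replicates, those most like it were ranked by the root mean square of the log2 distance from the centred mean level of the 4 members, over the 12 replicates. The 5 nearest were miR-350 at 0.28, miR-361 at 0.32, miR-24-2* at 0.36, miR-7a at 0.52 and miR-7b at 0.54, where the median assay was at 1.36. The members themselves lay at 0.36 (miR-362-3p), 0.36 (miR-532-3p), 0.44 (miR-532-5p) and 0.53 (miR-188-5p). Each of these 4 is part of that mean, which lowers its distance by construction. Their distances are therefore not comparable with those of the other assays. miR-350 was at 1.39, 0.34, -0.65 and -1.08 around its own mean in PYS, L-1210, M1 and CT-BM, beside 1.52, 0.28, -0.69 and -1.11 for the cluster. All of these share the control RNAs and the RNA samples.

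Other microRNAs of the X chromosome, 50 assays by their gene's position, were called in both directions. Of those tested against CT-BM, 8 of 25 were called higher and 13 lower in PYS (over all assays, 39.8% and 38.7%), 4 of 22 higher and 15 lower in L-1210 (22.5% and 45.6%), and 4 of 22 higher and 7 lower in M1 (25.2% and 44.3%). Their median log2 difference was -1.05 in PYS, -1.91 in L-1210 and -0.28 in M1, beside 0.08, -0.82 and -0.59 over all assays. miR-223, a granulocyte microRNA, fell by 18.81 ± 0.28 (SE) on the log2 scale in PYS, and it fell by 13.68 ± 0.28 in L-1210. miR-222 fell by 16.16 ± 0.36 in PYS, and it fell by 14.05 ± 0.36 in L-1210. The largest bounds of the higher X-linked assays were at least 219-fold for miR-672 in PYS, at least 130-fold for miR-547 in L-1210 and at least 819-fold for miR-547 in M1. In M1, miR-676 was at least 6840-fold lower than in CT-BM. Between lines, 10 of 24 X-linked assays were called higher and 11 lower in PYS against L-1210 (over all assays, 46.1% and 27.8%), 9 of 26 higher and 13 lower in PYS against M1 (46.2% and 27.4%), and 2 of 22 higher and 13 lower in L-1210 against M1 (25.3% and 30.9%).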

How the data were processed

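The members and lists were chosen with earlier results of these data known. Per the labels, total RNA was extracted with a mirVana kit, reverse transcribed, preamplified and run on TaqMan cards A and B for 40 cycles. Per the file headers, the authors' deposited table gives a Ct for every well and a Ct Avg, the mean over an assay's wells on a card; both are PCR cycles before any normalization. These other values were used as given, and no column of values was unused (0). The 24 GEO samples carry 12 titles, so that 2 samples make up 1 replicate.

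Python 3.11.15 (pandas 2.3.3, numpy 2.4.6) was used to check Ct Avg against its wells. Any Ct above 35, or undetermined, was taken as 35. The mean of snoRNA202, snoRNA135 and MammU6 on that card was subtracted. Its negative was the level, which limma 3.58.1 (R 4.3.3) fitted over the 12 replicates by lmFit with a mean for each of 4 groups, then eBayes, with Benjamini-Hochberg adjustment over the assays tested in each comparison. A call needed an adjusted p under 0.05 and a 2-fold difference. Folds against a group not detected are bounds. An absent well was left out of its fit. The method was tested on simulated data, modelled on assays detected in all 12 replicates. That test held no value at the Ct limit, so it does not cover the bounds. The rule for named assays outside the members was: assays of the same hairpins, the 5 most alike, and the 2 largest X-linked calls in each direction; the text gives a selection. Marker lists were blood-wide, granulocyte, lymphocyte, erythroid, endothelial, pluripotent, and mesenchymal and stromal. The miR-126-3p level (endothelial) was -5.39 to -4.91 in PYS, -5.25 to -4.70 in L-1210, -4.63 to -4.35 in M1 and -1.91 to -1.75 in CT-BM, and that of miR-223 (granulocyte) -17.91 to -17.00, -12.64 to -11.79, -2.41 to -2.09 and 1.24 to 1.43. For X-linked assays, 374 of 517 mouse assays were matched to a gene by name. Alternatives were single control RNAs, the mean of common assays, quantile normalization, Ct limits of 32 and 40, detection filters, fits of the groups compared, replicate block, robust eBayes and leaving out each replicate. snoRNA135 and snoRNA202 without MammU6 were added after seeing the data. Figures used matplotlib 3.10.9.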

Additional observations from a re-analysis of the deposited data

Results flagged for a closer look

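A rat-named assay for miR-532-5p, which the naming rule left out, gave a signal apart from the mouse-named assay. Its Ct was 19.6, 18.8 and 20.1 in PYS, 21.0, 20.8 and 19.8 in L-1210 and 20.9, 20.7 and 20.0 in M1, and neither of the 2 CT-BM replicates with a well amplified, where the mouse assay read 22.6 and 22.8. The log2 difference from CT-BM was at least 14.41 in PYS, 13.34 in L-1210 and 11.97 in M1. On the same card the Ct of the rat-named assay minus that of the mouse-named one was 1.00 ± 0.48 cycles in PYS, 1.27 ± 0.83 in L-1210 and 1.78 ± 0.46 in M1 (SD, n = 3 each), and at least 12.20 and 12.44 cycles in CT-BM. What the rat-named assay measures was not tested.

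The difference from CT-BM itself differed between lines for several members, with CT-BM shared by each pair of differences. L-1210 exceeded M1 by 1.56 on the log2 scale for miR-362-3p and by 1.65 for miR-532-3p. PYS exceeded M1 by 2.99 for miR-362-3p, 2.95 for miR-532-3p and 1.23 for miR-188-5p, and it exceeded L-1210 by 1.43 for miR-188-5p. In M1 the Ct of MammU6 differed from that of CT-BM by -2.17 cycles on card A and by -0.78 on card B. These 6 differences kept their sign under 7 of 7 scalings, but not all kept the call. miR-188-5p of PYS over M1 was called in 3 of 7 (0.18 with snoRNA135 alone), miR-362-3p of L-1210 over M1 in 4 (0.25 with snoRNA202 alone), miR-532-3p of L-1210 over M1 in 5 (0.34 with snoRNA202 alone) and miR-188-5p of PYS over L-1210 in 6 (0.62 with snoRNA135 alone). miR-362-3p and miR-532-3p of PYS over M1 were called in 7.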

How the results depend on the processing

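The 38 member differences gave 936 values under alternatives: 876 stayed on their side of the call with the same sign, 24 were no longer called, 19 were newly called and 17, in 9 of the 38, turned sign, each under another scaling. With snoRNA202 alone, miR-188-5p (-1.12), miR-362-3p (-0.19) and miR-532-3p (-0.24) turned in L-1210 against CT-BM, and miR-500 (-0.69) and miR-532-5p (-0.46) in L-1210 against M1. Without MammU6, miR-188-5p turned in L-1210 against CT-BM (-0.36) and miR-500 in L-1210 against M1 (-0.15). With MammU6 alone, miR-188-5p turned in L-1210 against M1 (1.35) and miR-362-3p in M1 against CT-BM (0.06). With snoRNA135 alone, miR-362-3p turned in M1 against CT-BM (0.01) and miR-532-5p in PYS against L-1210 (-0.01). With the mean of common assays, miR-362-3p (0.44) and miR-532-3p (0.30) turned in M1 against CT-BM and miR-188-5p (0.37) in L-1210 against M1. With quantile normalization, miR-362-3p (5.27) and miR-532-3p (0.69) turned in M1 against CT-BM and miR-532-5p (-0.19) in PYS against L-1210.
The number of members called was 7, 5 and 2 in PYS, L-1210 and M1 against CT-BM, 5 in PYS against L-1210, 7 in PYS against M1 and 3 in L-1210 against M1, and changed under these alternatives. With MammU6 alone it was 6 in L-1210 against CT-BM, 4 in PYS against L-1210 and 6 in L-1210 against M1. With snoRNA135 alone it was 2 in PYS against L-1210 and 4 in PYS against M1. With snoRNA202 alone it was 3 in L-1210 against CT-BM, 7 in PYS against L-1210, 6 in PYS against M1 and 2 in L-1210 against M1. The counts of L-1210 against CT-BM and against M1 there include miR-188-5p called lower, at -1.12 and -1.52. With MammU6 alone miR-188-5p was called higher in both, at 2.26 and 1.35. Without MammU6, an alternative added after seeing the data, the number of members called was 3 in L-1210 against CT-BM, 6 in PYS against L-1210, 4 in PYS against M1 and 1 in L-1210 against M1. With the mean of common assays it was 6 in L-1210 against CT-BM, 3 in M1 against CT-BM and 5 in L-1210 against M1. With quantile normalization it was 6 in L-1210 against CT-BM, 4 in M1 against CT-BM, 3 in PYS against L-1210 and 4 in PYS against M1. With only assays detected in all 12 replicates, which leaves 4 members to test, it was 4, 3 and 1 in PYS, L-1210 and M1 against CT-BM, 3 in PYS against L-1210, 4 in PYS against M1 and 2 in L-1210 against M1. Leaving out 1 replicate gave 5 or 6 in PYS against L-1210 and 3 or 4 in L-1210 against M1.
The median log2 difference over all tested members, bounds included, was 3.00, 1.82 and 0.72 in PYS, L-1210 and M1 against CT-BM, 1.43 in PYS against L-1210, 2.95 in PYS against M1 and 1.21 in L-1210 against M1. Among the alternatives, it moved beyond the replicate spread under other scalings. With MammU6 alone it was 4.51, 3.57, 4.27 and 2.77 in PYS against CT-BM, L-1210 against CT-BM, PYS against M1 and L-1210 against M1. With snoRNA135 alone it was 2.08 in PYS against CT-BM, 0.62 in PYS against L-1210 and 1.90 in PYS against M1. With snoRNA202 alone it was 2.41, 0.19 and 0.40 in PYS, L-1210 and M1 against CT-BM, 2.47 in PYS against L-1210 and -0.11 in L-1210 against M1. Without MammU6 it was 2.25 and 0.95 in PYS and L-1210 against CT-BM, 2.29 in PYS against M1 and 0.43 in L-1210 against M1. With the mean of common assays it was 3.90, 2.95 and 1.27 in PYS, L-1210 and M1 against CT-BM, 3.29 in PYS against M1 and 1.78 in L-1210 against M1. With quantile normalization it was 6.51, 4.58 and 2.15 in PYS, L-1210 and M1 against CT-BM, 0.62 in PYS against L-1210 and 1.23 in PYS against M1. The cause was not tested. Over all assays, the median shifted by -0.92 to 1.76 in PYS, -1.65 to 1.87 in L-1210 and -0.44 to 1.06 in M1 against CT-BM. Calls higher and lower, 144 and 140 in PYS, 75 and 152 in L-1210 and 82 and 144 in M1, became 205 and 104, 163 and 92, and 92 and 124 with MammU6 alone, and 121 and 161, 42 and 240, and 53 and 163 with snoRNA202 alone.
Leaving out 1 replicate at a time newly called miR-500 in PYS against L-1210 without L-1210 replicate 2 (1.29), PYS replicate 1 (1.12) or PYS replicate 3 (1.08), and miR-532-5p without L-1210 replicate 1 in PYS against L-1210 (1.03) and without L-1210 replicate 3 in L-1210 against M1 (1.03). Same-numbered replicates did not vary together (correlations -0.453 to 0.334 over 187 assays), and the replicate block changed no number of members called. Each bound against a group not detected moves with the Ct limit by construction, for miR-500 in PYS against CT-BM to 6.61 at a limit of 32 and 14.61 at 40.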

Other observations

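The neighbours miR-188-5p and miR-532-3p, a pair picked after the values were seen, differed in their balance between groups on card A. The Ct of miR-532-3p minus that of miR-188-5p was -1.70 ± 0.40 cycles in PYS, -1.83 ± 0.73 in L-1210, 0.03 ± 0.50 in M1 and -0.95 ± 0.16 in CT-BM (SD, n = 3 each). M1, at -0.48 to 0.52 cycles, lay above CT-BM, at -1.14 to -0.84, and PYS, at -1.98 to -1.25, lay below it. The Ct of miR-362-3p minus that of miR-500 was 0.17 ± 0.11 cycles in PYS, 0.61 ± 0.34 in L-1210 and 1.54 ± 0.36 in M1 (SD, n = 3 each). The 3 lines did not overlap there, and in CT-BM, where miR-500 was not detected, the value was at most -7.06 to -6.12 cycles.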
